A study of Homo sapiens with 6 samples.

Results

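Annexins, S100 proteins and galectins are 3 protein families, most of them made without a secretion signal, that were followed here in K562 cells after inhibition of EZH2. The members were the protein-coding genes of the GENCODE annotation whose symbols begin with ANXA, S100 or LGALS by a fixed naming pattern, irrespective of their levels. This gave 49 of the 60671 genes in the count files, of which 13 are annexins, 20 are S100 genes and 16 are galectins or carry the galectin name. K562 is a human chronic myeloid leukemia line with erythroid features. All libraries came from 1 clone, which makes Flag-NLS-M.CviPI-Lamin-B1, a GpC methyltransferase joined to a lamina protein, when doxycycline is given, so that the clone, the fusion and the doxycycline are common to both groups. Cells seeded at 125000 per mL received GSK343, an inhibitor of the H3K27 methyltransferase EZH2, at 1 µM (EZH2i) or DMSO at 0.1% v/v (DMSO) over 72 hours, and doxycycline at 1 µg/mL was present in the last 24 of them. Each group had 3 separate cultures, and the 3′ ends of polyadenylated transcripts were sequenced.

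Annexins bind acidic phospholipids when calcium is present and gather at injured or curved membranes. S100 proteins are EF-hand calcium sensors that work as dimers, and several dock onto the amino terminus of an annexin: S100A10 onto ANXA2, and S100A11 onto ANXA1. Galectins recognize β-galactoside sugars on glycoproteins, outside the cell and on ruptured lysosomes. Many of these genes are switched on with differentiation, in myeloid cells, epithelia or placenta. EZH2 is the catalytic subunit of Polycomb repressive complex 2 (PRC2), which places H3K27me3, a mark found at CG-rich promoters of silent developmental genes. The comparison asks which members differ in transcript level once this enzyme is blocked.

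Reads on genes ranged from 6327544 to 8987768 per library. Levels are given in CPM, the usual depth-scaled read count, with the library size multiplied by its TMM factor. Since the method yields reads from the transcript end only, CPM was not divided by length, and levels of different genes are compared on this per-transcript-end scale. *EZH2* itself averaged 335 ± 22.9 CPM under DMSO and 293 ± 20.6 CPM under EZH2i (SD, n = 3 each; adjusted p = 0.306, edgeR). EZH2i replicate 1 stood furthest from the other libraries of its group: over the tested genes, chi-square divided by its degrees of freedom was 10.8 and 12.8 against replicates 2 and 3, and 4.56 between those. It held the highest of the EZH2i levels for 15 of the 21 tested members, or 71.4%, whereas it did so for 38.5% of all 12364 tested genes. Where leaving it out changed a call, the value without it is given as well, and it is also given for some other genes.

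Erythroid and K562 markers were present, with *GATA1* at 79.9 CPM in DMSO. *HBZ* and *HBG2* were called higher, and the summed level of the 11 markers was 1070 to 1230 CPM in DMSO and 1230 to 1280 in EZH2i. The call of *HBZ* held in all 6 fits that left out a library. That of *HBG2* was lost without DMSO replicate 1, 2 or 3 (adjusted p = 0.0724, 0.138 and 0.0624, edgeR). The log2 fold change of *HBG2* was 0.58 over all libraries and 0.40 without EZH2i replicate 1. Of 8 monocyte and macrophage markers, *CSF1R*, *CD163*, *VCAN* and *MS4A7* had no read in any library, and the summed level was 11.2 to 16.4 CPM in DMSO and 20.5 to 23.3 in EZH2i. *LYZ*, which encodes lysozyme, was the only tested gene of that list and was called higher (log2 fold change 0.62, adjusted p = 0.0426, edgeR), although it was not called without any of the 6 libraries (adjusted p from 0.053 to 0.16, edgeR). Granulocyte markers summed to between 0.794 and 4.3 CPM in every library, with *ELANE*, *CEACAM8* and *LTF* at 0 reads. Megakaryocyte markers summed to between 0.626 and 2.02 CPM, with *PF4*, *PPBP* and *GP9* at 0 reads. Of 9 fibroblast and epithelial markers, *LUM* and *KRT5* had no read, *COL1A1* was higher in EZH2i (log2 fold change 1.91, adjusted p = 0.00424, edgeR), *EPCAM*, which made up most of the sum, was at 77.5 and 63.9 CPM with the EZH2i libraries below the DMSO libraries (log2 fold change -0.28, adjusted p = 0.156, edgeR), and the summed level was 75.7 to 85.4 CPM in DMSO and 70.0 to 73.3 in EZH2i. Lymphocyte markers summed to between 3.44 and 6.02 CPM, with *MS4A1* at 0 reads. The part of these markers in the results was not tested, and in bulk libraries fewer cells of a type cannot be told apart from less RNA per cell.

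Of the 49 members, 21 passed the expression filter and were tested, 12 had reads but stayed under the filter, and 16 had no read in any of the 6 libraries. EZH2 inhibition raised 3 of the tested members, *ANXA6*, *LGALS3BP* and *LGALSL*, and lowered none (adjusted p under 0.05, edgeR's quasi-likelihood test). Over all 12364 tested genes, 3.34% were called higher and 0.922% lower. At an unadjusted p under 0.05, 7 members were higher and 1 was lower, beside 10.9% and 8.21% of all tested genes, and DESeq2 called 1 member higher, *ANXA6*, and 0 lower. *LGALS3BP* and *LGALSL* reached the filter level of 1.32 CPM only in EZH2i libraries, so that they could be tested only because they were high there. Of the 19 members that reached it in at least 1 DMSO library, 1 was called higher, or 5.26%, as were 2.92% of the 12244 such genes overall. At an unadjusted p under 0.05 (edgeR), 5 of these 19 members were higher, or 26.3%, beside 10.2% of the 12244 genes. The median log2 fold change of the 21 tested members was 0.0782, and that of all tested genes was -0.000215. By family it was -0.0878 for 8 annexins, 0.339 for 7 S100 genes and 0.0581 for the 4 genes with the galectin name other than *LGALS3BP* and *LGALSL* (0.235 with them). The smallest two-sided p that an exact permutation of these 6 libraries allows is 0.1, so that calls rest on the fit across all genes.

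**Figure D1:**
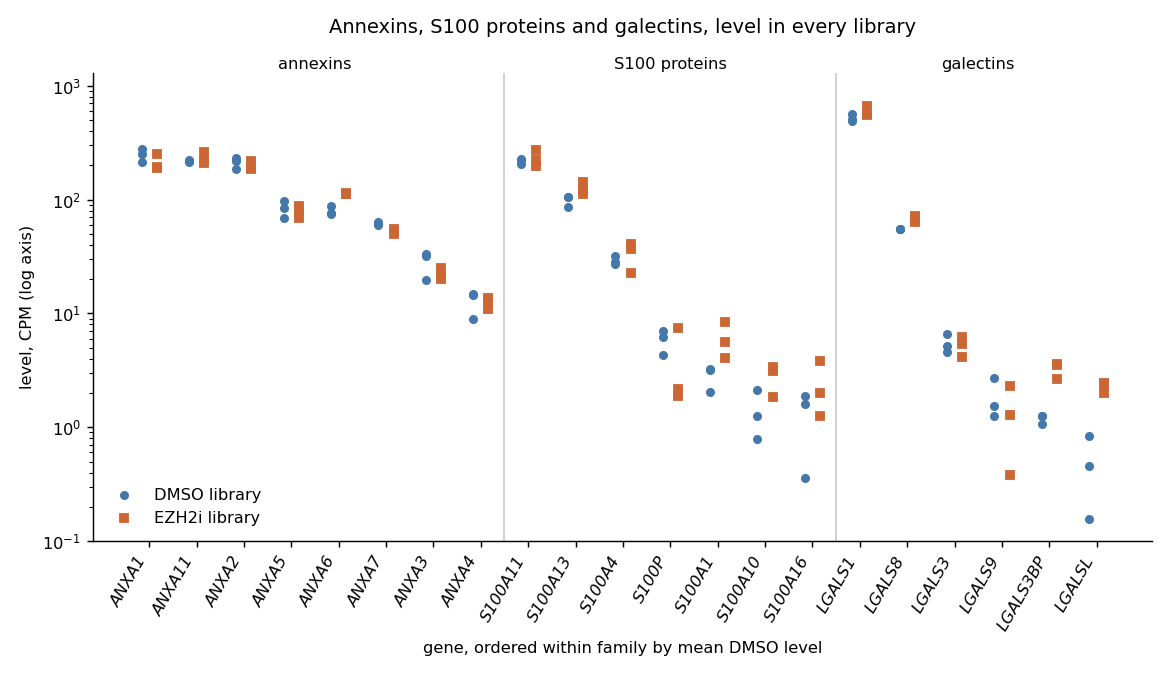
Level of the 21 tested members in CPM on a log axis, with circles for the 3 DMSO libraries and squares for the 3 EZH2i libraries. *LGALS1*, *ANXA1*, *ANXA11*, *ANXA2* and *S100A11* lay above 180 CPM in every library, while *LGALS3BP* and *LGALSL* lay under 4 CPM in every library and were higher in all EZH2i libraries.

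Among the annexins, *ANXA6* rose. It encodes the largest annexin, which has a doubled core and binds to the plasma membrane and to endosomes, where it takes part in cholesterol traffic and membrane repair. *ANXA6* (ENSG00000197043; chromosome 5 of GRCh38, 151100706 to 151157815, minus strand) was at 75.9, 75.5 and 87.7 CPM in DMSO replicates 1, 2 and 3 and at 114, 112 and 113 CPM in EZH2i replicates 1, 2 and 3. All EZH2i libraries lay above all DMSO libraries, and the EZH2i libraries were closer to each other than the DMSO libraries were. The group means were 79.7 ± 6.95 and 113 ± 1.33 CPM (SD, n = 3 each), a 1.42-fold difference (log2 fold change 0.50, standard error 0.104, adjusted p = 0.0114, edgeR). The call needed both DMSO replicate 1 and DMSO replicate 2, since leaving them out gave an adjusted p of 0.0728 and 0.0694 (edgeR), and it held without EZH2i replicate 1 (0.00727). With the rise, *ANXA6* made up 8.42% ± 0.514 of the summed annexin level in DMSO and 12.3% ± 0.959 under EZH2i (SD, n = 3 each).

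The 3 most abundant annexins were *ANXA1*, *ANXA11* and *ANXA2*, and none of them passed the test. *ANXA1*, known for its anti-inflammatory action through formyl peptide receptors, was at 251, 213 and 281 CPM in DMSO and at 250, 188 and 192 CPM in EZH2i. Its groups overlapped through EZH2i replicate 1 (log2 fold change -0.24, standard error 0.128, adjusted p = 0.316, edgeR). Without that library the log2 fold change was -0.38 and *ANXA1* was called lower, at the edge of the threshold (adjusted p = 0.04995, edgeR), and without DMSO replicate 3 the log2 fold change was -0.14. *ANXA11*, which tethers RNA granules to lysosomes, was at 222, 220 and 213 CPM in DMSO and at 262, 220 and 210 CPM in EZH2i (log2 fold change 0.08, adjusted p = 0.747, edgeR). *ANXA2*, the partner of S100A10 in a membrane-bound tetramer that binds plasminogen, was at 185, 217 and 233 CPM in DMSO and at 218, 186 and 191 CPM in EZH2i (log2 fold change -0.09, adjusted p = 0.705, edgeR). The DMSO ranges of these 3 genes overlapped, so that their order is not resolved.

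*ANXA7*, a promoter of membrane fusion, was lower in every EZH2i library than in every DMSO library without passing the test: it was at 64.0, 62.0 and 59.3 CPM in DMSO and at 50.4, 54.9 and 52.0 CPM in EZH2i (log2 fold change -0.24, standard error 0.107, unadjusted p = 0.0424, adjusted p = 0.242, edgeR). It was the only tested member with such a separation downwards, and 11.1% of all tested genes had it. *ANXA5*, whose product is used in the laboratory to stain exposed phosphatidylserine, averaged 83.6 ± 14.3 CPM in DMSO and 78.9 ± 9.80 under EZH2i (SD, n = 3 each; adjusted p = 0.787, edgeR). *ANXA3* was at 28.3 ± 7.43 and 22.4 ± 2.62 CPM (adjusted p = 0.32, edgeR) and *ANXA4* at 12.6 ± 3.28 and 12.4 ± 1.40 CPM (adjusted p = 0.978, edgeR). Both had their lowest DMSO level in replicate 3. The summed annexin level was 930.8, 931.9 and 972.9 CPM in DMSO and 1017, 875.0 and 866.1 CPM in EZH2i, so that the groups overlapped through EZH2i replicate 1. The ratio of the group means was 0.973, and 0.921 without that library. *ANXA9* had 3, 7 and 12 reads in DMSO and 13, 7 and 8 reads in EZH2i and was not tested. *ANXA8*, *ANXA8L1*, *ANXA10* and *ANXA13* had no read.

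**Figure D2:**
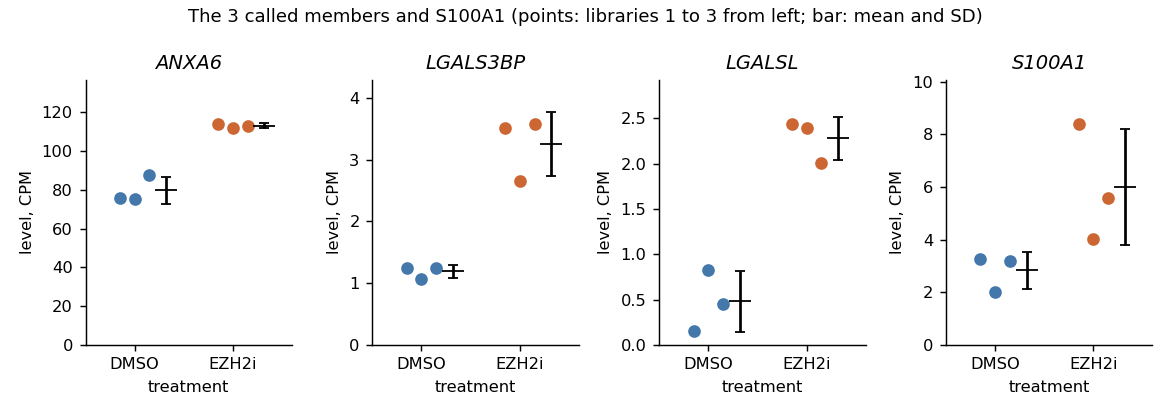
Level in CPM of *ANXA6*, *LGALS3BP*, *LGALSL* and *S100A1* in DMSO and EZH2i, with a point for each library and a bar for the mean and SD (n = 3 each). In all 4 panels every EZH2i library lies above every DMSO library, and the *S100A1* libraries of EZH2i spread from 4.04 to 8.40 CPM.

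None of the S100 genes was called, in either direction, by edgeR or by DESeq2, while 3 of the 7 tested had an unadjusted p under 0.05, all of them higher, a count to be read beside the 10.9% of all tested genes that were higher at this threshold. *S100A10*, among them, reached the filter level of 1.32 CPM in 1 DMSO library and in 3 EZH2i libraries. It was thus carried past the filter by the group where it was higher, which favoured a difference in that direction. *S100A11*, the partner of ANXA1, was the most abundant, at 221, 227 and 205 CPM in DMSO and at 273, 196 and 221 CPM in EZH2i (log2 fold change 0.08, adjusted p = 0.774, edgeR). Its level was near that of *ANXA1*: the ratio of *ANXA1* to *S100A11* was 1.15 ± 0.218 in DMSO and 0.916 ± 0.0466 under EZH2i (SD, n = 3 each). *S100A13*, which takes part in the release of signal-less growth factors, was at 85.7, 105 and 106 CPM in DMSO and at 143, 121 and 112 CPM in EZH2i. The groups did not overlap, and the difference did not pass the test (log2 fold change 0.34, standard error 0.12, adjusted p = 0.12, edgeR). Without EZH2i replicate 1 the log2 fold change of *S100A13* was 0.23 (adjusted p = 0.241, edgeR). *S100A4*, a binder of non-muscle myosin known from cell motility, was at 28.2, 27.3 and 31.9 CPM in DMSO and at 22.6, 40.9 and 37.1 CPM in EZH2i (log2 fold change 0.20, adjusted p = 0.578, edgeR), and here EZH2i replicate 1 was the lowest of all 6 libraries. Without it the log2 fold change of *S100A4* was 0.42 (adjusted p = 0.0694, edgeR), and without EZH2i replicate 2 it was 0.03.

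*S100A1*, a calcium sensor best known from heart muscle, had the smallest p among the members that were not called. It was at 3.28, 2.02 and 3.18 CPM in DMSO and at 8.40, 4.04 and 5.59 CPM in EZH2i, which is 21, 17 and 28 reads against 62, 32 and 39. Every EZH2i library was above every DMSO library (log2 fold change 1.09, standard error 0.321, unadjusted p = 0.00342, adjusted p = 0.066, edgeR). It was called with a replicate block (adjusted p = 0.0375, edgeR), without a filter on low counts (0.0116) and without EZH2i replicate 2 (0.0296), and without EZH2i replicate 1 its log2 fold change was 0.77 (adjusted p = 0.227, edgeR). Exons of *S100A13* and of the unnamed genes ENSG00000271853 and ENSG00000272030 on the opposite strand overlap *S100A1*, covering 58.4% of its last 500 exonic bases, and the strand setting of the counting is not given in the sources used here. *S100A13* in turn shares 40.4% of its last 500 exonic bases with ENSG00000271853 on its own strand, so that reads there may have been left uncounted as ambiguous.

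*S100A10* and its partner *ANXA2* differed widely in level. *S100A10* had 5, 18 and 11 reads in DMSO and 25, 25 and 13 in EZH2i, a level of 0.782, 2.14 and 1.25 CPM against 3.39, 3.15 and 1.86 CPM. The ratio of *ANXA2* to *S100A10* was 237, 102 and 187 in DMSO and 64.4, 59.2 and 103 in EZH2i, so that a large excess of *ANXA2* was present in each library and the groups overlapped narrowly. The log2 fold change of *S100A10* was 0.97 (standard error 0.411, unadjusted p = 0.0296, adjusted p = 0.199, edgeR). *S100A16* averaged 1.27 ± 0.808 CPM in DMSO and 2.35 ± 1.30 under EZH2i (SD, n = 3 each; adjusted p = 0.353, edgeR), and its log2 fold change was 0.91 over all libraries and between 0.38 (without EZH2i replicate 1) and 1.24 (without DMSO replicate 1) when 1 library was left out.

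*S100P*, named for its discovery in placenta, lies on chromosome 4, outside the large S100 cluster. It was at 7.04, 6.17 and 4.31 CPM in DMSO and at 7.45, 1.89 and 2.15 CPM in EZH2i, so that EZH2i replicate 1 was the highest of all libraries and replicates 2 and 3 were the lowest. Over all libraries the log2 fold change was -0.60 (standard error 0.399, adjusted p = 0.442, edgeR), and without EZH2i replicate 1 it was -1.51 and called (adjusted p = 0.0173, edgeR), while without EZH2i replicate 2 or 3 it was -0.26 or -0.32. The sign of the difference was thus carried by replicates 2 and 3, and its size depended on whether replicate 1 was counted.

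**Figure D3:**
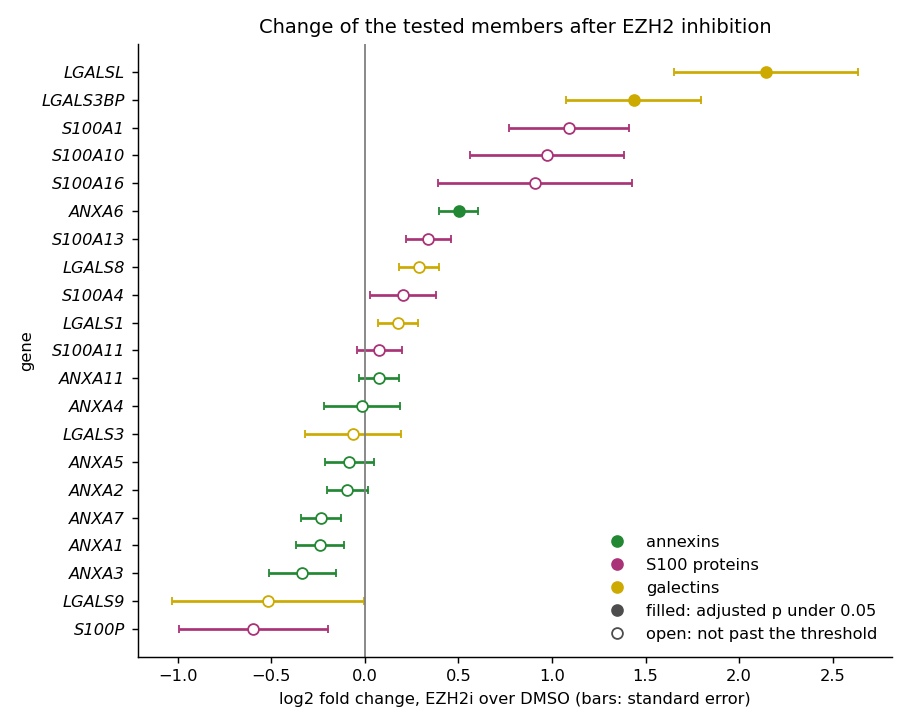
Log2 fold change of each tested member, EZH2i over DMSO, with the standard error as a bar and the family as colour; filled points passed the threshold. The 3 filled points are *LGALSL* at 2.14, *LGALS3BP* at 1.44 and *ANXA6* at 0.50, and 12 of the 21 points lie above 0.

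The S100 cluster of chromosome 1 was silent or nearly so outside a few of its S100 genes. The 16 S100 members there span 1.65 Mb (GRCh38, 151982915 to 153632039) together with 47 other protein-coding genes of the files, many of them for the cornified envelope of skin. Of these 47 genes, 42 had no read in any library and 0 were tested, so that no change could be called on them. Of the 16 S100 genes, 6 were tested, and *S100A11* at 10233 reads, *S100A13* at 5162 and *S100A4* at 1441 over the 6 libraries stood beside neighbours with few reads or none. *S100A6*, *S100A12* and *S100A7A* had no read. *S100A6* encodes calcyclin and is separated from *S100A4* by *S100A5*, yet it stayed at 0 in both groups. A count of 0 allows up to 3 reads, which is 0.34 to 0.469 CPM per library and covers counting error only.

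The remaining S100 genes gave a few reads each. *S100A8* and *S100A9*, the subunits of calprotectin in monocytes and granulocytes, had 9 reads and 1 read over all libraries, and *S100A7* had 1. *S100A14* had 5, 7 and 5 reads in DMSO and 3, 3 and 4 in EZH2i. *S100A5* had 1, 3 and 2 against 6, 2 and 5 reads, and *S100A2* had 1, 8 and 0 against 3, 0 and 1. *S100A3* had 5, 1 and 0 against 0, 4 and 0 reads. Outside the cluster, *S100Z* on chromosome 5 had 8, 13 and 8 reads in DMSO and 13, 9 and 4 in EZH2i, while *S100B* and *S100G* had none. Of these, the reads of *S100A14* alone did not overlap between the groups, and on the CPM scale they did, with 0.567 in the lowest DMSO library and 0.573 in the highest EZH2i library. The summed S100 level was 351.1, 373.8 and 355.0 CPM in DMSO and 465.4, 370.3 and 383.0 CPM in EZH2i, and its mean was 1.13-fold that of DMSO over all libraries and 1.05-fold without EZH2i replicate 1.

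**Figure D4:**
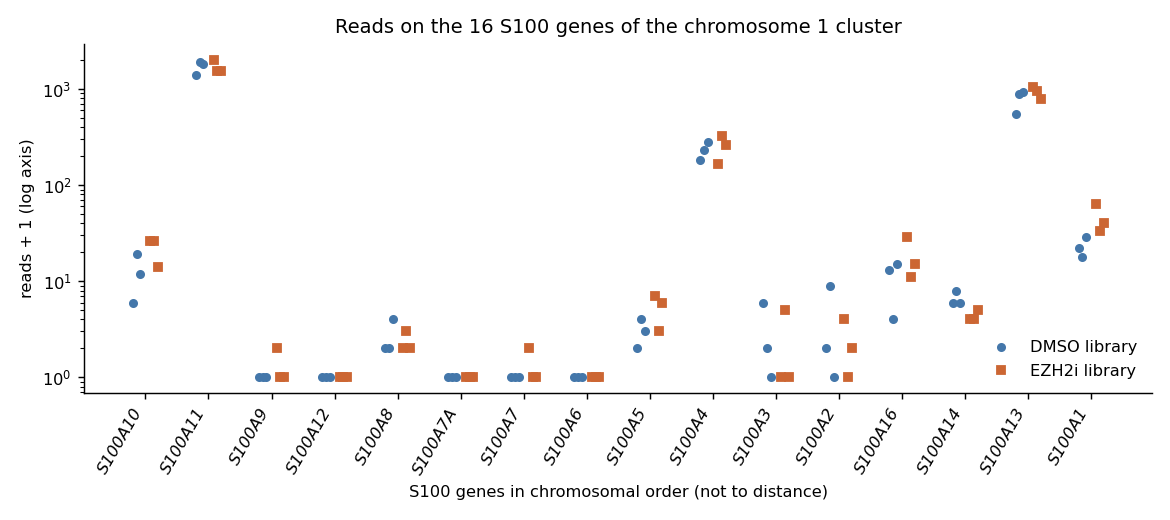
Reads plus 1 on a log axis for the 16 S100 genes of the chromosome 1 cluster in chromosomal order, with circles for DMSO and squares for EZH2i libraries. *S100A11*, *S100A4* and *S100A13* stand out in every library, and *S100A12*, *S100A7A* and *S100A6* lie at 0 reads.

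Among the genes with the galectin name, *LGALS3BP* and *LGALSL* rose, and neither is a sugar-binding galectin as far as is known: *LGALS3BP* encodes a secreted scavenger-receptor-type glycoprotein that binds galectin-3, and *LGALSL* encodes a galectin-like protein that lacks the lactose-binding residues. *LGALS3BP* (ENSG00000108679; chromosome 17, 78971238 to 78979947, minus strand) had 8, 9 and 11 reads in DMSO and 26, 21 and 25 in EZH2i, or 1.25, 1.07 and 1.25 CPM against 3.52, 2.65 and 3.58 CPM. The lowest EZH2i library was above the highest DMSO library. The difference was 2.71-fold (log2 fold change 1.44, standard error 0.361, adjusted p = 0.0326, edgeR). It was not called by DESeq2 (adjusted p = 0.116), nor without any DMSO replicate (0.099, 0.124 and 0.09 without replicates 1, 2 and 3, edgeR), EZH2i replicate 1 (0.0737) or EZH2i replicate 3 (0.0836), while its log2 fold change stayed between 1.36 and 1.57 in these fits and that without EZH2i replicate 2.

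*LGALSL* (ENSG00000119862; chromosome 2, 64453969 to 64461381, plus strand) was barely detected in DMSO, with 1, 7 and 4 reads, and had 18, 19 and 14 reads in EZH2i. DMSO replicate 1 lay under 3 reads, the limit that a count of 0 allows, so that the size of the fold is imprecise. On the CPM scale this was 0.156, 0.831 and 0.454 against 2.44, 2.40 and 2.01. The groups were well separated, and the group means were 0.48 ± 0.338 and 2.28 ± 0.239 CPM (SD, n = 3 each). The difference was 4.42-fold (log2 fold change 2.14, standard error 0.492, adjusted p = 0.0203, edgeR). The adjusted p was 0.0666 in DESeq2 and 0.0989, 0.0862 and 0.0524 without DMSO replicate 1, DMSO replicate 3 and EZH2i replicate 2 (edgeR), with log2 fold changes of 1.81 to 2.75 over all fits that left out a library.

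*LGALS1*, a dimeric galectin that induces death of activated T cells when secreted, was the most abundant of all 49 members and ranked 203 among the 12364 tested genes by mean level. It was at 488, 570 and 514 CPM in DMSO and at 660, 569 and 551 CPM in EZH2i (log2 fold change 0.18, standard error 0.106, adjusted p = 0.374, edgeR), and its log2 fold change was 0.098 without EZH2i replicate 1. It held 89.0% ± 0.658 of the summed level of the galectin-named genes in DMSO and 88.0% ± 0.305 under EZH2i (SD, n = 3 each). *LGALS8*, a tandem-repeat galectin that marks damaged endosomes for autophagy, was at 55.2, 54.7 and 55.6 CPM in DMSO and at 71.5, 67.1 and 63.9 CPM in EZH2i. Its groups did not overlap and the DMSO libraries were tight, but the difference was not called (log2 fold change 0.29, standard error 0.106, unadjusted p = 0.0139, adjusted p = 0.135, edgeR). Exons of *HEATR1*, *LGALS8-AS1* and ENSG00000230325 on the opposite strand overlap *LGALS8*, at none of its last 500 exonic bases.

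*LGALS3*, a chimeric galectin of macrophages and epithelia and the partner of LGALS3BP, averaged 5.47 ± 1.08 CPM in DMSO and 5.25 ± 1.02 under EZH2i (SD, n = 3 each; adjusted p = 0.927, edgeR). *LGALS9*, a ligand of the receptor HAVCR2, had 8, 13 and 24 reads in DMSO and 17, 3 and 9 in EZH2i and varied more within each group than between them (log2 fold change -0.52, adjusted p = 0.635, edgeR), with a log2 fold change of -1.19 without EZH2i replicate 1, -0.06 without EZH2i replicate 2 and -0.11 without DMSO replicate 3. *LGALS12*, known from adipose tissue, had 2, 3 and 9 reads in DMSO and 15, 8 and 3 in EZH2i and was not tested. *LGALS4* had 0 reads in each DMSO library and 1, 1 and 3 in EZH2i, and *LGALS13* had 1 read in all. *LGALS2*, *LGALS7*, *LGALS7B*, *LGALS9B*, *LGALS9C*, *LGALS14* and *LGALS16* had no read. Several of the members at 0 have near-identical copies (*LGALS7* and *LGALS7B*, *LGALS9B* and *LGALS9C*, *ANXA8* and *ANXA8L1*), and since reads with more than 1 alignment are in no gene's count, their levels are uncertain. The summed level of the galectin-named genes was 550.8, 635.1 and 580.3 CPM in DMSO and 747.7, 648.6 and 626.8 CPM in EZH2i. Its mean was 1.15-fold that of DMSO over all libraries and 1.08-fold without EZH2i replicate 1.

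Across the families, 6 tested members had every EZH2i library above every DMSO library: *ANXA6*, *S100A13*, *S100A1*, *LGALS8*, *LGALS3BP* and *LGALSL*. This separation was found for 13.3% of all tested genes. Without *LGALS3BP* and *LGALSL* it held for 4 of 19 members, or 21.1%, beside 12.5% of the 12244 genes that reached the filter in at least 1 DMSO library. For 11 of the 21 tested members the highest of all 6 libraries was EZH2i replicate 1, among them 6 of the 7 tested S100 genes, and this was so for 23.9% of all tested genes.

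The promoters of the called members differed in their content of CG pairs, the letters at which CpG islands are recognized and to which PRC2 is commonly recruited. Windows from 250 bases before to 50 after the annotated start were taken from a set of RefSeq promoters (GRCh38.p14) that did not cover all genes. In this set 44 of the 49 members and 9307 of the 12364 tested genes had an entry. The members missing from the set were *ANXA8*, *ANXA13*, *S100B*, *LGALS1* and *LGALS12*. Where several starts are listed, the window with the most CG pairs was used for all genes alike. The windows of the 3 called members are shown 5′ to 3′ on the gene's strand, with that of *S100A6*, which stayed at 0 reads, for comparison, and capitals mark each CG pair.
LGALSL (chr2:64453912-64454211, plus strand): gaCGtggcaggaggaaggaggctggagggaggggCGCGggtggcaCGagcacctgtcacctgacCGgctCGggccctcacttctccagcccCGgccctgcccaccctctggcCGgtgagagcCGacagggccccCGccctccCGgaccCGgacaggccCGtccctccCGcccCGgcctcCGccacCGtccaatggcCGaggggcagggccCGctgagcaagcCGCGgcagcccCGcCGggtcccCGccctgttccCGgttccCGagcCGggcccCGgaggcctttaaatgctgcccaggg
ANXA6 (chr5:151157730-151158029, minus strand): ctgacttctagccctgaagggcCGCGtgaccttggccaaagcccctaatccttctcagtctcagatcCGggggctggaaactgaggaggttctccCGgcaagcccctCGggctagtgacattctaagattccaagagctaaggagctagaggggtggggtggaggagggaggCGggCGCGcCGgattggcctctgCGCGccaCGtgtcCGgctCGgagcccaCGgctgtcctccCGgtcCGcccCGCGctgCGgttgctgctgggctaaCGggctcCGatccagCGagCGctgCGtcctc
LGALS3BP (chr17:78979874-78980173, minus strand): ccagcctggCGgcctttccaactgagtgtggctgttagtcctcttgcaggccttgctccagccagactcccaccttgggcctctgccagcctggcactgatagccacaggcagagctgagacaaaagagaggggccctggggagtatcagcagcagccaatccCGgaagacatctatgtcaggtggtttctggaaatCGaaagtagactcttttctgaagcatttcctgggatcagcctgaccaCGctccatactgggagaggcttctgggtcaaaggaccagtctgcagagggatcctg
S100A6 (chr1:153535942-153536241, minus strand): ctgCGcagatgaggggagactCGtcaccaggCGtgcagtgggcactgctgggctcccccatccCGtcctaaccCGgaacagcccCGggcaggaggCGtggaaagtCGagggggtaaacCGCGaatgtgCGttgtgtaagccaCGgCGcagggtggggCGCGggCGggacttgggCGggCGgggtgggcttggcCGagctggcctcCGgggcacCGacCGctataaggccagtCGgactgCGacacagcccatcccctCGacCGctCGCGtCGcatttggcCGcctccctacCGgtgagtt

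The window of *LGALSL* held 28 CG pairs, that of *ANXA6* 25 and that of *LGALS3BP* 4. The letters CG read the same on both strands and were counted once. *S100A6*, with 31 CG pairs, and *S100A10*, with 32 and a level under 4 CPM in every library, show that CG-rich windows occurred among members with few or no reads, and *ANXA1*, at over 180 CPM in every library, had 0. Of the 20 tested members with an entry, 13 had 10 or more CG pairs, a share of 65.0%, beside 94.3% of the 9307 tested genes with an entry. Of the 24 members under the filter, 2 had 10 or more, *S100A6* and *ANXA8L1*, or 8.33%, beside 40.1% of the 17998 genes in the table that were not tested. By family, 7 of 8 tested annexins, 3 of 7 tested S100 genes and 3 of 5 tested galectin-named genes had 10 or more. These counts describe the windows and do not test binding or methylation, which was not measured in these libraries.

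**Figure D5:**
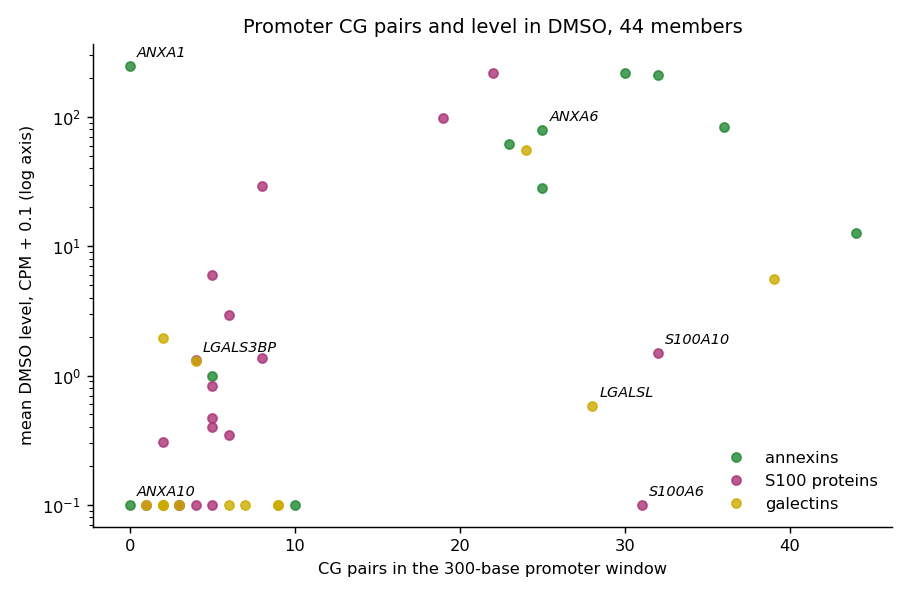
CG pairs in the 300-base promoter window against the mean DMSO level in CPM plus 0.1 on a log axis, for the 44 members with an entry, coloured by family. Members with no read in DMSO sit at the bottom, at 10 CG pairs or fewer except *S100A6* at 31, and *LGALSL* lies at 28 with a low DMSO level.

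Among the listed partners of the 3 families, 3 genes were called. Of 25 listed partners of annexins (membrane repair proteins, ESCRT subunits, calpains, the plasminogen system and formyl peptide receptors), 18 were tested and 0 were called in either direction by edgeR or DESeq2, with 3 higher and 2 lower at an unadjusted p under 0.05, beside 10.9% and 8.21% of all tested genes. These were *CAV1* (log2 fold change 1.55), *PLA2G4A* (1.18), *CHMP4B* (0.33), *PLAU* (-0.75) and *PLAUR* (-0.48), with adjusted p from 0.0825 to 0.174 (edgeR), and they were named after their values were seen. *CAV1* and *PLA2G4A* exceeded the filter level of 1.32 CPM in DMSO replicate 1 only and in every EZH2i library. They were thus carried past the filter by the group where they were higher. The groups did not overlap for *PLA2G4A*, *CHMP4B* and *PLAUR*, a separation found upwards for 13.3% and downwards for 11.1% of all tested genes. *AHNAK*, a giant scaffold bound by the ANXA2 and S100A10 complex, was at 82.3 and 90.4 CPM in DMSO and EZH2i (log2 fold change 0.13, adjusted p = 0.723, edgeR). Of 15 S100 receptors and targets, 10 were tested, 0 were called higher and *SUGT1*, a co-chaperone of HSP90 that binds S100A6, was called lower, beside 3.34% and 0.922% of all tested genes. At an unadjusted p under 0.05, 0 were higher and 2 were lower, the other being *CACYBP* (log2 fold change -0.29, adjusted p = 0.115, edgeR), named after its value was seen. *SUGT1* averaged 129 ± 4.06 CPM in DMSO and 100 ± 1.29 CPM under EZH2i (SD, n = 3 each; log2 fold change -0.37, standard error 0.0979, adjusted p = 0.0414, edgeR). The call of *SUGT1* was lost in 5 of the 6 fits that left out a library (adjusted p up to 0.132, edgeR, without DMSO replicate 3) and with a replicate block (0.073). Its log2 fold change lay between -0.39 and -0.34 in all 11 alternative fits.

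Of 24 galectin ligands, glycan enzymes and autophagy partners, 21 were tested, 2 were called higher and 0 lower by edgeR and DESeq2, beside 3.34% and 0.922% of all tested genes. At an unadjusted p under 0.05, 4 were higher and 1 was lower, beside 10.9% and 8.21% of all tested genes. Those not called were *B4GALT5* (log2 fold change 0.28, adjusted p = 0.224, edgeR), *B3GNT2* (0.25, adjusted p = 0.244) and *LAMP1*, named after their values were seen. *CD44*, a hyaluronan receptor and a glycoprotein ligand of galectins, had 5, 15 and 19 reads in DMSO and 52, 61 and 51 in EZH2i, or 1.57 ± 0.71 against 7.35 ± 0.326 CPM (SD, n = 3 each). The groups were far apart (log2 fold change 2.16, standard error 0.313, adjusted p = 0.000899, edgeR), and the call held in all 6 fits that left out a library (adjusted p up to 0.00778, edgeR). *MGAT5*, the enzyme that adds the N-glycan branch on which galectin ligands are extended, averaged 44.3 ± 4.25 CPM in DMSO and 63.9 ± 1.18 under EZH2i (SD, n = 3 each; log2 fold change 0.53, standard error 0.114, adjusted p = 0.0135, edgeR). Its adjusted p was 0.0895 without DMSO replicate 2. The other ligands and enzymes tested were not called, among them *LAMP1* (log2 fold change -0.40, adjusted p = 0.128, edgeR), *LAMP2* (-0.15, adjusted p = 0.48) and *ITGB1* (0.08, adjusted p = 0.712). *LAMP1* was at 156, 125 and 134 CPM in DMSO and at 78.0, 120 and 118 CPM in EZH2i, lowest in EZH2i replicate 1.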

How the data were processed

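RNA was isolated from 3 separate cultures per treatment of 1 K562 clone, and libraries of transcript 3′ ends were sequenced with 50 bp single-end reads. The authors counted reads per Ensembl gene with HTSeq 0.11.2 on hg38 and deposited raw counts without normalization, 1 file per library; STAR 2.6.0c is listed in the submitters' processing notes. Genome and annotation came from Ensembl per the study's methods, and the strand setting is not given in the sources used here. Lines that name no gene, 32.1% to 36.4% of the listed reads, were left out. A deposited table of the authors' own comparison (fold changes and p-values) was not used.

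From these counts, edgeR 4.0.16 (run in R 4.3.3) gave every test (TMM factors, filterByExpr with a minimum count of 10, glmQLFit and glmQLFTest, two-sided, Benjamini-Hochberg over all 12364 tested genes, threshold 0.05). The standard error is the size of the log2 fold change over the square root of F. DESeq2 1.42.0 was an alternative, besides RLE factors, other filters, a replicate block and leaving out each library. Genes were matched to GENCODE version 44 (60401 of 60671 identifiers). Replicates differed by more than sampling noise (chi-square per degree of freedom 4.56 to 12.8), so none was counted as a copy. Every tested member is named, members under the filter with 10 or more reads are given by library, and called partners are named. The members and lists were chosen with earlier results of these data known.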

Additional observations from a re-analysis of the deposited data

How the results depend on the processing

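Of 3 members called higher, 3 remained with RLE size factors and 4 were called with a replicate block or without a filter on low counts, where *S100A1* was added; 1 was called by DESeq2 or with at least 10 counts in every library, which leaves *LGALS3BP* and *LGALSL* untested, and 0 at an adjusted p under 0.01. Across the fits without 1 library, 0 to 3 were called higher, the lowest without DMSO replicate 1, and 0 to 2 were called lower, the latter *ANXA1* and *S100P* without EZH2i replicate 1. The cause was not tested. Replicate numbers did not pair the samples (correlations of -0.0511, -0.0175 and -0.017 between same-numbered libraries), and beside *S100A1* and *SUGT1* the replicate block changed no call among the members, the partner lists and the called markers. Without a filter on low counts, 1 annexin partner and 1 galectin partner were also called lower, and with at least 10 counts in every library *CD44* was not tested. Log2 fold changes near 0 changed sign without 1 library, ranging from -0.06177 to 0.1808 for *S100A11*, from -0.02084 to 0.1412 for *ANXA11*, from -0.226 to 0.09943 for *ANXA4*, from -0.2074 to 0.04397 for *ANXA5* and from -0.1998 to 0.1045 for *LGALS3*. Folds are imprecise for genes near or under 10 reads per library, which include *LGALSL* and *LGALS3BP* in DMSO. The sums without EZH2i replicate 1 were chosen after the data were seen.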
